A study of Mus musculus with 2 samples.

Results

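Red cells of embryonic flank skin were taken as the droplet barcodes in which genes with symbols starting Hba- or Hbb- gave at least 50% of the unique molecular identifiers (UMIs, the count of captured molecules). The rule held for 2844 of 25475 deposited barcodes, with no minimum of detected genes. They were 2460 of 11909 barcodes in the mutant library and 384 of 13566 in the control library. The skin came from mouse embryos at E13.5 (embryonic day) bred from Axin2CreER, an inducible Cre recombinase at the Axin2 locus, and Rosa-lox-STOP-lox-SmoM2YFP, an activated Smoothened fused to YFP that is expressed after recombination, here in cells with Axin2 activity at induction. The mutant library is titled as dermal SmoM2YFP mutant, and the control title names SmoM2YFP with no recombinase. Each is 1 library of 2 to 3 pooled littermates, and the time of Cre induction is not given in the sources used here.

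The genotype entries of the labels contradict the titles, since the library titled mutant carries the wild-type entry and the library titled control carries the mutant entry. Groups follow the titles. In barcodes with under 10% hemoglobin UMIs, called other barcodes, the transgene feature eYFP had 16.9 counts per 1000000 non-hemoglobin UMIs (CPM) for the mutant library and 0.517 CPM for the control library, and the Hedgehog target Ptch1 had 144 and 5.73 CPM, so both went with the titles. With 1 library per group there was no replicate and no test between them. Intervals in parentheses are exact 95% intervals for counting error only and do not cover differences between embryos, dissections or sorts. No barcode chosen by the rule was shared between the libraries, among 48 barcode sequences that occurred in both.

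Red cells of a mouse embryo at this age come from a primitive and a definitive lineage. Primitive cells arise in the yolk sac, enter the circulation with their nuclei and carry the embryonic globins Hbb-y and Hbb-bh1 of the beta locus and Hba-x of the alpha locus. Definitive cells are made in the fetal liver, lose the nucleus before release and carry the adult globins Hbb-bs, Hbb-bt, Hba-a1 and Hba-a2. Reticulocytes, the young enucleated cells, still hold RNA while organelles are cleared.

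The globin genes that divide these barcodes lie in the beta locus on chromosome 7 and the alpha locus on chromosome 11, and 1 embryonic and 1 adult gene of each locus is shown by its promoter window from RefSeq (GRCm38.p6), from upstream of the start into the transcript. Capitals mark 3 motifs on either strand, CACCC (known from Klf1 sites), the CCAAT box and GATAA (known from Gata1 sites).
Hbb-y promoter, chr7:103853158-103853457, minus strand: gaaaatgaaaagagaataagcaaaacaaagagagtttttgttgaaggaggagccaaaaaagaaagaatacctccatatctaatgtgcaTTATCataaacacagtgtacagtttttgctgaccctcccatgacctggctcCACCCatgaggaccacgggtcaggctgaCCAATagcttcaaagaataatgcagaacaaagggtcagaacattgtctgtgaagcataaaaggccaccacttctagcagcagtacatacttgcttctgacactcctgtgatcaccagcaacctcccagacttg
Hbb-bs promoter, chr7:103827879-103828178, minus strand: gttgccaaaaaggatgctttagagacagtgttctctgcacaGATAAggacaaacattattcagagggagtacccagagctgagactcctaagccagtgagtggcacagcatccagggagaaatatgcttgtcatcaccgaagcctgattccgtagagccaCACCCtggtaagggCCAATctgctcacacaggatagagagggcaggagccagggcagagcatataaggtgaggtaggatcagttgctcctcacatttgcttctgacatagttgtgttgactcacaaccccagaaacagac
Hba-x promoter, chr11:32276350-32276649, plus strand: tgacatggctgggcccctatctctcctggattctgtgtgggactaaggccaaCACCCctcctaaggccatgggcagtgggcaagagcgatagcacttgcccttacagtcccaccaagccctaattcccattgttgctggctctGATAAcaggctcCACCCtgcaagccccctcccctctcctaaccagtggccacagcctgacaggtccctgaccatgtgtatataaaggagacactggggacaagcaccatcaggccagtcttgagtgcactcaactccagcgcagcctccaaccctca
Hba-a1 promoter, chr11:32283422-32283721, plus strand: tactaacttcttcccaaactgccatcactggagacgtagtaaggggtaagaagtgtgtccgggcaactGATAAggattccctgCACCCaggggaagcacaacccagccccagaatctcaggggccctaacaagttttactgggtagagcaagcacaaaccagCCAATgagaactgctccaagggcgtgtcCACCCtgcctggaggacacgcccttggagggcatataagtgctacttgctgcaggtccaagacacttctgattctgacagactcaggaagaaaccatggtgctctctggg
The Hbb-y and Hbb-bs windows each held 1 CACCC, 1 CCAAT and 1 GATAA, with GATAA of Hbb-y on the opposite strand. Hba-a1 held 2 CACCC, 1 CCAAT and 1 GATAA, and Hba-x held 2 CACCC, 1 GATAA and no CCAAT. Of 32851 promoter windows of this length, 57.5% held CACCC, 37.4% CCAAT and 25.4% GATAA, so these letters are common and their matches describe the windows only.

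Transcripts of the adult genes are nearly identical in pairs, and the authors' counting could assign reads of a pair unevenly. Hba-a1 and Hba-a2 matched at 99.8% of 538 aligned bases, and Hbb-bs and Hbb-bt at 93.6% of 609 bases with a longest shared run of 430 bases. The split within each pair is therefore uncertain, and values given for 1 gene of a pair carry that limit. Hbb-y is more distinct, with 73.8% identity to Hbb-bh1 over 599 aligned bases.

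Hemoglobin-rich barcodes were more frequent in the mutant library, and the excess was much larger for barcodes with adult globins than for barcodes with embryonic globins. They made up 20.7% (19.9 to 21.4) of mutant barcodes and 2.83% (2.56 to 3.12) of control barcodes, a share 7.30-fold (6.55 to 8.15) higher in the mutant library. Set against 100 other barcodes, there were 26.9 for the mutant library and 2.93 for the control library. Cells were sorted after DAPI staining from dissected skin, so blood left in the tissue, lysis and the sort gate can set these shares, and their part was not tested.

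The choice of at least 50% fell in a sparse region of the distribution. Barcodes just inside, at 50 to 60% hemoglobin UMIs, numbered 14 for the mutant library and 4 for the control library, and those just outside, at 40 to 50%, numbered 19 and 15. The median hemoglobin share of those chosen was 89.3% for the mutant library and 90.3% for the control library. A further 294 mutant and 79 control barcodes held 10 to 50% hemoglobin UMIs, with medians of 2413 and 3185 hemoglobin UMIs beside 6872 and 7584 other UMIs. Their hemoglobin count was of the same order as in the chosen barcodes, and their other RNA as in other barcodes. Whether such barcodes are doublets was not tested, and no doublet caller was run.

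**Figure D1:**
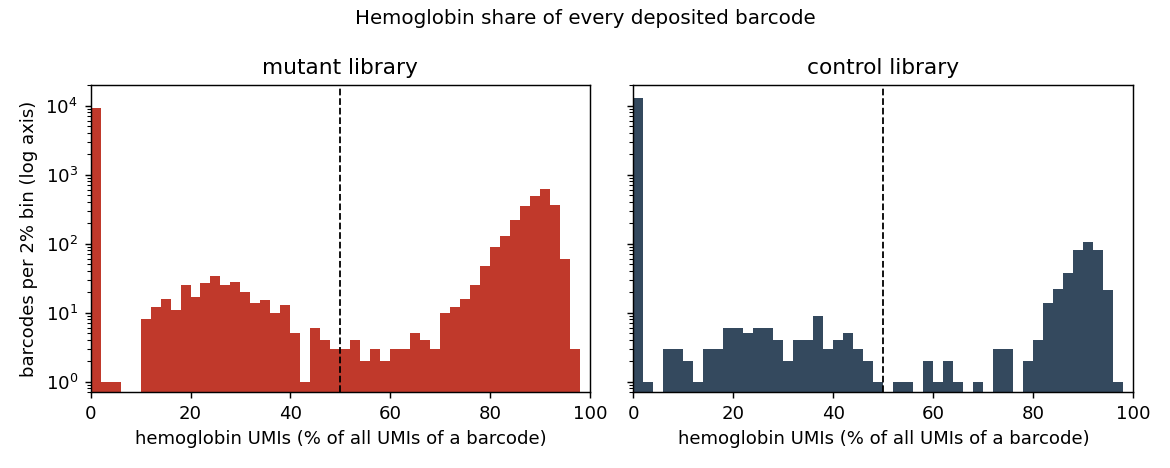
Number of barcodes (log axis) by the percentage of their UMIs from hemoglobin genes, in narrow bins, for the mutant library (left) and the control library (right); the dashed line is the 50% rule. Both libraries have a peak near 90%, and 2460 mutant and 384 control barcodes lie at or above the line.

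Beta-globin content was either almost wholly adult or mostly embryonic, with almost nothing in between. The share of Hbb-y plus Hbb-bh1 in the beta-globin UMIs was under 1% in 2299 mutant and 293 control barcodes, and 1 to 10% in 3 mutant barcodes. It lay between 10 and 50% in 1 control barcode, at 35.8%, and in no mutant barcode. All others were above 60%. Barcodes at or above 50% are called the embryonic range and those below it the definitive range, which are ranges of a score named for their globins.

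The definitive range held 2302 mutant and 294 control barcodes, and its share of all barcodes was 8.92-fold (7.90 to 10.1) higher in the mutant library. The embryonic range held 158 mutant and 90 control barcodes, with a share 2.0-fold (1.53 to 2.62) higher. The embryonic range was thus 6.42% (5.49 to 7.46) of hemoglobin-rich barcodes for the mutant library and 23.4% (19.3 to 28.0) for the control library. There were 14.6 definitive barcodes for each embryonic one for the mutant library and 3.27 for the control library. With 1 pool of embryos per group, a difference of genotype cannot be told apart from a difference of pool, embryo stage or dissection.

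**Figure D2:**
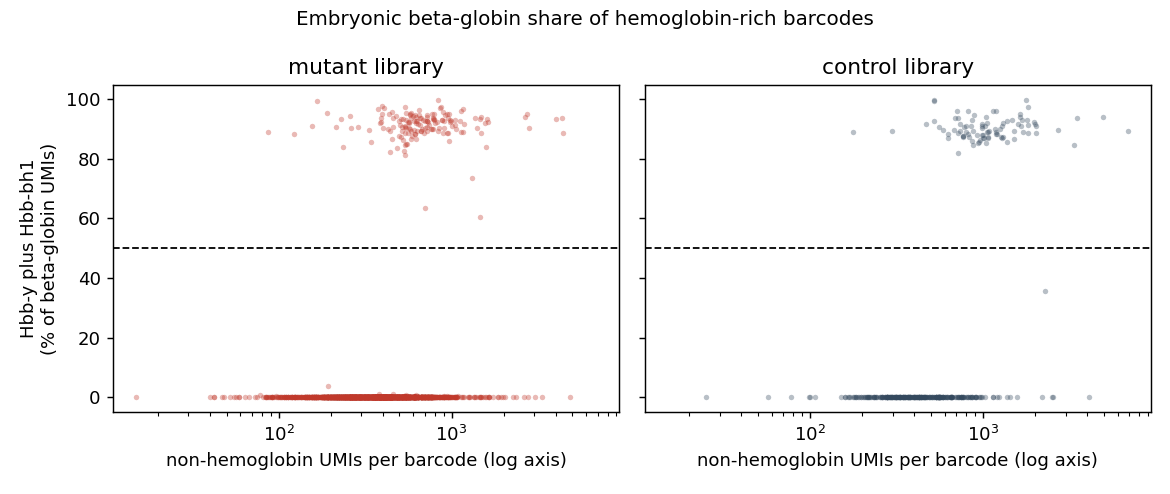
Each point is a hemoglobin-rich barcode of the mutant (left) or control (right) library, placed by its non-hemoglobin UMIs (log axis) and by the percentage of beta-globin UMIs from Hbb-y and Hbb-bh1; the dashed line is at 50%. The points form a band near 0% and a cloud mostly above 80%, with 1 control barcode between them at 35.8%.

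Embryonic-range barcodes were dominated by Hbb-y, and also held adult globin. Hbb-y gave 68.6% of their hemoglobin UMIs for the mutant library and 65.6% for the control library. Hbb-bh1, the other embryonic beta gene, gave 0.147% and 0.147%. Hba-x, which was not used to divide the ranges, was 27.6% (27.5 to 27.8) of alpha-globin UMIs in mutant and 29.9% (29.7 to 30.1) in control embryonic barcodes, against 0.00674% and 0.207% in definitive barcodes. The control value was 0.00449% without the 1 barcode at 35.8% embryonic beta-globin. The alpha locus therefore divided along the same line as the beta locus.

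Adult globin in embryonic-range barcodes was well above the level seen in other barcodes. The median Hbb-bs plus Hbb-bt count was 338 UMIs in mutant and 612 in control embryonic barcodes, against 4 and 0 UMIs in other barcodes. Hba-a1, the main adult alpha gene, gave 17.2% and 18.6% of hemoglobin UMIs there. Adult genes thus made up most alpha-globin UMIs of the embryonic range in both libraries, while embryonic genes made up 90.8% and 90.1% of the beta-globin UMIs.

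Definitive-range barcodes held almost no embryonic globin. Hbb-bs gave 54.4% of hemoglobin UMIs for the mutant library and 55.0% for the control library, Hbb-bt 12.8% and 12.1%, and Hba-a1 32.3% and 32.1%. The composition was alike in both libraries for these genes. Hbb-y gave 0.0116% in the mutant library. In the control library it gave 0.163%, and 0.00621% without the barcode at 35.8%. The theta-like genes Hbq1a and Hbq1b were rare, with 243 and 132 UMIs in definitive barcodes of the mutant library and 41 and 18 in those of the control library.

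Alpha-globin UMIs were fewer than beta-globin UMIs in both ranges. The summed ratio of alpha to beta was 0.320 in mutant and 0.370 in control embryonic barcodes, against 0.490 and 0.487 in definitive barcodes. The 3′ capture and the shared reads of near-identical genes affect such ratios, so they are not ratios of transcripts. Embryonic genes were 11.1% (11.1 to 11.1) of beta-globin UMIs over all mutant hemoglobin-rich barcodes and 35.6% (35.5 to 35.6) over all control ones, while the values within each range were close.

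Besides hemoglobin, these barcodes held little RNA. The median was 383.5 non-hemoglobin UMIs in mutant and 512 in control hemoglobin-rich barcodes, against 6385 and 7265 in other barcodes. The median number of detected genes was 188 and 221, against 2277 and 2506 in other barcodes. Only 12 of the 2460 mutant and 8 of the 384 control barcodes reached 1000 detected genes, so a filter at that level would leave out almost all of them. Over those barcodes alone, the share in the mutant library was 1.71-fold that in the control one.

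The definitive range was shallower than the embryonic range in both libraries. In embryonic barcodes the lower quartile, median and upper quartile of non-hemoglobin UMIs were 526, 652 and 897 in the mutant library and 794, 1035 and 1453 in the control library. In definitive barcodes they were 257, 370 and 512 in the mutant library and 296, 416 and 578 in the control library. The interquartile ranges of the embryonic and definitive ranges did not overlap in either library. Median total UMIs were 6199.5 and 9730.5 in embryonic barcodes, against 3448 and 4739.5 in definitive barcodes.

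Mutant barcodes were shallower than control barcodes throughout, including outside the red cells. The ratio of median total UMIs, mutant over control, was 0.637 in the embryonic range and 0.728 in the definitive range, and 0.879 in other barcodes. For non-hemoglobin UMIs alone it was 0.630 in the embryonic range and 0.889 in the definitive range, and this second value was near the 0.879 of other barcodes. The hemoglobin UMIs of definitive barcodes had a ratio of 0.711, with medians of 3023 for the mutant and 4254 for the control library. A gap in sequencing depth between the libraries and less RNA per cell cannot be told apart here. With each barcode thinned to 500 UMIs, the ratio of median non-hemoglobin UMIs over all hemoglobin-rich barcodes was 1.13, against 0.749 without thinning. At equal total UMIs this ratio follows the non-hemoglobin share and is no measure of depth. The median hemoglobin share was 89.3% in mutant and 90.3% in control hemoglobin-rich barcodes.

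Malat1, a long RNA retained in the nucleus, divided the ranges sharply. It was among the 3 most abundant non-hemoglobin transcripts of the embryonic range, with 2.99% of non-hemoglobin UMIs for the mutant library and 2.94% for the control library. In definitive barcodes it was 0.177% and 0.195%, and in other barcodes 0.680% and 0.871%. Definitive barcodes were thus below, and embryonic barcodes above, the level of the remaining skin cells in both libraries.

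No Malat1 UMI was found in 1732 of 2302 mutant definitive barcodes (75.2%) and 210 of 294 control ones (71.4%). In the embryonic range it was absent from 6 of 158 mutant and 4 of 90 control barcodes. Since depth differs, each barcode was thinned to 100 non-hemoglobin UMIs, which left out 1 mutant and 0 control embryonic barcodes and 37 and 4 definitive ones as too shallow. After thinning, Malat1 was detected in 82.8% (76.0 to 88.4) of mutant and 81.1% (71.5 to 88.6) of control embryonic barcodes, against 8.96% (7.82 to 10.2) and 11.7% (8.26 to 16) of definitive ones. Other barcodes lay between, at 45.7% and 50.2%. The difference between the ranges therefore held at equal depth and in each library.

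**Figure D3:**
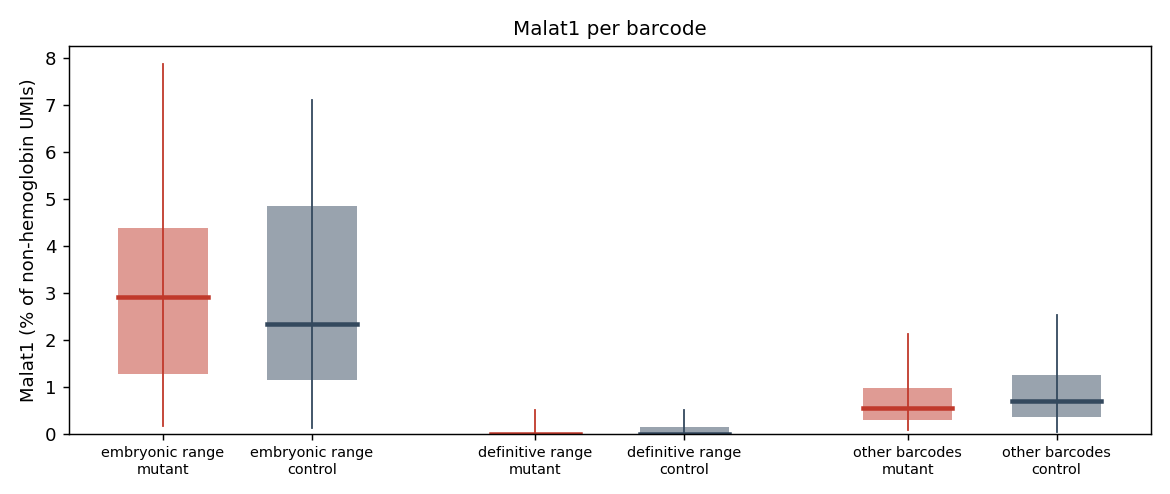
Malat1 as a percentage of non-hemoglobin UMIs per barcode in the embryonic range, the definitive range and other barcodes, mutant left of control in each pair; thick lines are medians, boxes the quartiles and thin lines the span without the outermost barcodes at each end. The medians are 2.92% and 2.34% in the embryonic range and 0% in the definitive range of both libraries.

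A level of 1% Malat1 or more was reached by 81.0% of mutant and 77.8% of control embryonic barcodes, against 1.35% and 1.02% of definitive ones. The 30 mutant and 20 control embryonic barcodes under 1% had median non-hemoglobin counts of 580.5 and 906 UMIs, against 657 and 1048 in those at 1% or more. Their median embryonic beta share was 92.1% and 89.5%, against 92.0% and 89.6%, so low Malat1 did not go with less embryonic globin. Ribosomal protein genes were 33.1% and 37.8% of their non-hemoglobin UMIs, against 25% and 26.1% where Malat1 was higher. Whether a nucleus was present cannot be read from RNA alone.

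Neat1, another RNA held in the nucleus, followed Malat1. It had 439 and 344 CPM in embryonic barcodes of the mutant and control libraries, against 14.5 and 20.7 CPM in definitive barcodes, taken over barcodes with at least 90% and at most 10% embryonic beta-globin. The difference was 30.1-fold (16.1 to 60) for the mutant library and 16.6-fold (4.89 to 87.7) for the control library. Kcnq1ot1 and Meg3, also kept in nuclei, did not follow: Kcnq1ot1 had 54.8 and 145 CPM in embryonic barcodes of the mutant and control libraries, against 112 and 75.9 CPM in definitive barcodes, and Meg3 had 219 and 398 CPM in embryonic barcodes of the mutant and control libraries, against 328 and 324 CPM in definitive barcodes. Both stood below their levels in other barcodes, at 408 and 414 CPM and 985 and 1329 CPM.

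Mitochondrial transcripts were a smaller share of non-hemoglobin RNA in the embryonic range. The median was 0.549% in mutant and 0.555% in control embryonic barcodes, against 2.56% and 2.90% in definitive barcodes. Other barcodes had medians of 2.5% and 2.19%, nearer to the definitive range. As sums, the shares were 1.95% (1.88 to 2.03) and 2.03% (1.95 to 2.11) in embryonic barcodes, against 4.27% (4.23 to 4.31) and 4.14% (4.04 to 4.24) in definitive barcodes. Summed over other barcodes, the shares were 2.63% and 2.36%, nearer to the embryonic range. By sums, the libraries differed within a range by 0.13 percentage points or less. Over all hemoglobin-rich barcodes the summed mutant share was 4.0% and the control share 3.22%. Medians did not show that contrast, at 2.45% and 2.39% over all hemoglobin-rich barcodes, and in the definitive range the mutant median was the lower one.

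Ribosomal protein genes made up 26.7% and 28.2% of non-hemoglobin UMIs in mutant and control embryonic barcodes, against 18.4% and 21.4% in definitive barcodes. Other barcodes had 26.6% and 27.3%, so the definitive range was the one that stood lower. In both libraries the ferritin chains Fth1 and Ftl1, which store iron, led the non-hemoglobin RNA of both ranges.

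Depth within the definitive range went with content. Of 4 equal groups by non-hemoglobin UMIs, the shallowest had medians of 2390.5 and 3222 hemoglobin UMIs in the mutant and control libraries, and the deepest 3327 and 4962. Alas2, which catalyses the first step of heme synthesis in red cells, was 14190.4 and 14948 CPM in the shallowest and 6715 and 6609.6 CPM in the deepest group. Alas2 thus took a larger part of the remaining RNA in shallow than in deep barcodes of both libraries. RNA of the dermal marker list was 692 and 957 CPM in the shallowest and 1204 and 2306 CPM in the deepest group, and its part in these values was not tested.

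Non-hemoglobin RNA was summed over barcodes of each kind and scaled to 1000000, as CPM. Of the features, 1452 had at least 50 UMIs over the hemoglobin-rich barcodes of both libraries, and a gene was called at a 2-fold ratio with 10 CPM added to both values. Hemoglobin-rich over other barcodes, 327 genes were at least 2-fold higher in both libraries (22.5% of those tested) and 528 at least 2-fold lower (36.4%). With no UMI minimum, 3695 were lower. As the barcodes were chosen for red cell transcripts, this contrast is a description. The median log2 ratio over all genes tested was -0.58 for the mutant and -0.50 for the control library.

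The leading genes were red cell genes. Alas2, the marker named with the rule that is no globin, had 8323 and 6258 CPM in hemoglobin-rich barcodes of the mutant and control libraries, against 0.693 and 0.263 CPM in other barcodes. Mkrn1, a ubiquitin ligase, had 12365 and 7297 CPM in hemoglobin-rich barcodes of the mutant and control libraries, against 26.2 and 22.1 CPM in other barcodes. Both were among the 15 highest by the smaller ratio of the libraries. The other leading genes included Bpgm (bisphosphoglycerate mutase, which tunes oxygen release), Car2 (carbonic anhydrase), Slc25a37 (mitoferrin, which carries iron into mitochondria), Fech (which inserts iron into heme), Tent5c, Fam210b, Ube2l6, March2, Blvrb (biliverdin reductase B) and Grifin.

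Alas2 and Slc4a1 were nearly absent from other barcodes. Slc4a1, the anion exchanger band 3, had 473 and 372 CPM in hemoglobin-rich barcodes of the mutant and control libraries, against 0.0967 and 0.0188 CPM in other barcodes. With every barcode thinned to 100 non-hemoglobin UMIs, Alas2 was detected in 26.1% and 21.1% of mutant and control embryonic barcodes, in 60.5% and 62.8% of definitive ones, and in 0 of 9155 and 0 of 13103 other barcodes. Alas2 and Slc4a1 were not used by the rule, and their summed levels set these barcodes apart from the rest in both libraries. Without thinning, Slc4a1 was detected in 398 of 2460 mutant hemoglobin-rich barcodes (16.2%), so most single barcodes lacked it. Klf1 and Gata1, transcription factors of the marker list, were sparse, with 64 and 10 UMIs and 11 and 3 UMIs, and Ahsp is not among the symbols used.

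Many list genes did not reach 50 UMIs in hemoglobin-rich barcodes and were not compared. Of the lists, 7 of 10 heme synthesis genes, 4 of 10 iron genes, 12 of 18 membrane and skeleton genes, 7 of 15 erythroid transcription factors, 11 of 14 genes of organelle clearance, 14 of 16 enzymes and protectants and 9 of 15 cell cycle genes passed. As passing needs RNA in these barcodes, no count over the genes that passed is given for the contrast with other barcodes. Tmem14c, a heme synthesis transporter, was at 35.8 and 57.5 CPM in mutant and control hemoglobin-rich barcodes, against 134 and 126 CPM in other barcodes. Prdx2, a peroxidase abundant in red cells, Fth1 and Ftl1 were well detected in other barcodes too, with 950 and 904 CPM, 2251 and 2013 CPM and 2791 and 2936 CPM in the mutant and control libraries.

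Markers of other skin cells were detected in hemoglobin-rich barcodes. The 10 dermal markers summed to 1141 and 1736 CPM in mutant and control embryonic barcodes and 899 and 1595 CPM in definitive ones, against 4418 and 6981 CPM in other barcodes, and all 10 were detected in each. The 8 macrophage markers summed to 31.3 and 26.4 CPM and 45.7 and 47.5 CPM, against 388 and 387 CPM. Of 6 megakaryocyte and platelet markers, 5, 5, 4 and 5 had no UMI in mutant and control embryonic and mutant and control definitive barcodes. At least 1 UMI of the dermal list was in 21.5% of mutant and 34.7% of control definitive barcodes. Free RNA and doublets as sources of it were not tested. The 7 endothelial markers summed to 188 and 8.81 CPM in mutant and control embryonic barcodes. These were 24 UMIs in 4 mutant barcodes and 1 UMI in 1 control barcode. Definitive barcodes had 11.4 and 0 CPM of them, and other barcodes 103 and 70.5 CPM. The 8 epidermal markers summed to 289 and 159 CPM in mutant and control embryonic barcodes and 1230.2 and 625 CPM in definitive ones, against 832 and 241 CPM in other barcodes. They stood above their level in other barcodes for the definitive range of both libraries, and that sum was mostly Krt15, at 1134 and 597 CPM in mutant and control definitive barcodes. The basal keratins Krt14 and Krt5 were lower there than in other barcodes, at 40.5 and 20.4 CPM against 286 and 86.4 CPM for Krt14, and 19.7 and 0 CPM against 163 and 35.1 CPM for Krt5. In definitive barcodes, markers of muscle, mural cells, mast cells, glia and melanoblasts stood below their level in other barcodes. Those of melanoblasts had 15 UMIs in control embryonic barcodes, all in 3 barcodes, against 0 in mutant ones. That was 132 CPM, against 49.3 CPM in other control barcodes.

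For genes that differ between the lineages, barcodes with at least 90% embryonic beta-globin (110 mutant, 42 control) were set against those with at most 10% (2302 mutant, 293 control), in each library by itself. These sums held 91208 and 55280 non-hemoglobin UMIs, against 962427 and 145005. At least 2-fold higher in both libraries were 165 of 1452 genes (11.4%), and at least 2-fold lower were 228 (15.7%). With no UMI minimum, 655 were higher and 361 lower. The minimum was applied to sums in which definitive barcodes prevail, so genes low there passed less easily, and counts over lists describe the genes that passed. The direction was the same in both libraries for 1113 genes (76.7%), and of the genes called in the mutant library (19.7% of those tested higher and 21.6% lower), 65.5% were called in the same direction in control barcodes.

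Embryonic barcodes stood out by Hmox1, heme oxygenase 1, which breaks heme down. It had 72 and 37 UMIs, or 789 and 669 CPM, in embryonic barcodes of the mutant and control libraries, against 1 and 0 UMIs in definitive barcodes. In the control library that is at least 32.4-fold higher, with 3 UMIs over the group as the floor. In the mutant library the ratio was 759.7-fold (132 to 30419.8) and rests on 1 definitive UMI. Genes of the 10 highest and 10 lowest, Hmox1 among them, were picked by this ratio in the same counts. Their intervals are therefore no support for a difference. At 100 UMIs per barcode Hmox1 was detected in 6.37% and 10% of mutant and control embryonic barcodes and in 0 of the definitive ones kept, which allows up to 0.163% and 1.26%. Other barcodes had 23.5 and 32.8 CPM.

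Pdzk1ip1 and Nudt4 marked the embryonic range by abundance. Pdzk1ip1, a small membrane protein, had 1886 and 1592 CPM in embryonic barcodes of the mutant and control libraries, against 26.0 and 34.5 CPM in definitive barcodes. It was almost absent from other barcodes, with 4 UMIs for the mutant and 0 for the control library. Nudt4, a diphosphoinositol polyphosphate phosphohydrolase, was the most abundant of them and had 23024 and 19410.3 CPM in embryonic barcodes of the mutant and control libraries, against 1046 and 662 CPM in definitive barcodes, a ratio of 22-fold (20.4 to 23.7) and 29.3-fold (23.8 to 36.5). Nudt4 in other barcodes was 97.9 and 103 CPM, so both ranges were above it.

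Bnip3, Ddit3, Slc38a2, Bcor and Cited4 were also among the 10 highest. Bnip3, a mitophagy receptor induced by hypoxia, had 307 and 525 CPM in embryonic barcodes of the mutant and control libraries, against 2.08 and 6.90 CPM in definitive barcodes. Ddit3, the stress transcription factor CHOP, had 252 and 379.9 CPM in embryonic barcodes of the mutant and control libraries, against 3.12 and 6.90 CPM in definitive barcodes. Slc38a2, an amino acid transporter, had 526 and 796 CPM in embryonic barcodes of the mutant and control libraries, against 20.8 and 13.8 CPM in definitive barcodes. All 3 were scarce in definitive barcodes of both libraries. Over the few barcodes with at least 1000 detected genes, the log2 ratio of Ddit3 was -3.28 for mutant and -3.29 for control barcodes, the opposite direction. Bcor, a transcriptional corepressor, had 30 and 20 UMIs in embryonic barcodes of the mutant and control libraries, against 1 and 0 in definitive barcodes. Cited4, a transcriptional coactivator, had 27 and 13 UMIs, against 5 and 0. Fam174b and Sde2 completed the 10 highest.

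**Figure D4:**
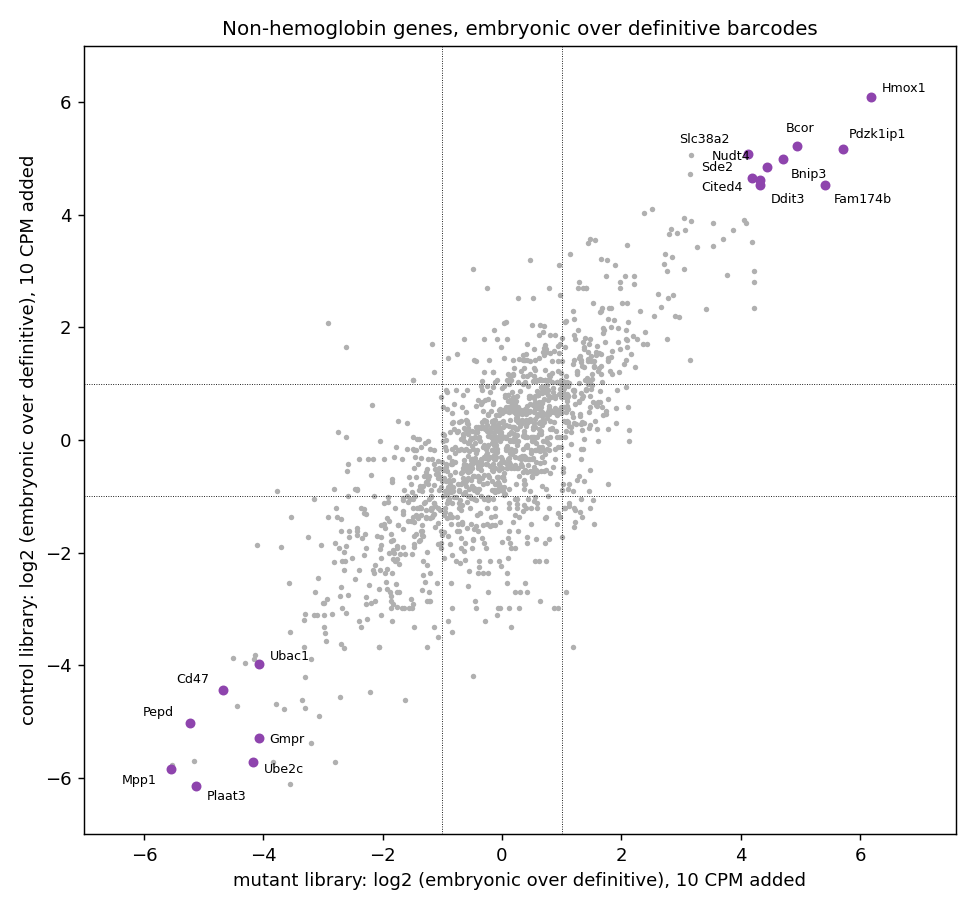
Each point is 1 of 1452 non-hemoglobin genes, placed by its log2 ratio of embryonic over definitive barcodes (10 CPM added) in the mutant library (x) and in the control library (y); dotted lines mark 2-fold. Genes among the 10 highest and 10 lowest by the smaller ratio are named and purple, from Hmox1 at 6.18 and 6.09 to Mpp1 at -5.55 and -5.85.

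Among the immediate early and heat shock list, 3 of 5 tested genes were higher in embryonic barcodes of both libraries and 0 lower. The shares over all genes tested were 11.4% and 15.7%. Junb, an AP-1 component, had 18 and 13 UMIs in embryonic barcodes of the mutant and control libraries, against 1 and 3 in definitive ones. Hspa8, a constitutive chaperone, had 702 and 796 CPM in embryonic barcodes of the mutant and control libraries, against 262 and 221 CPM in definitive barcodes. Btg2 was the other. The list median was 1.36 and 1.80 on the log2 scale, against 0.02 and -0.15 over all genes tested (0.02 and -0.03 with genes of 0 UMIs set to their bound). Skin was dissociated with trypsin, and the part of that step in these genes was not tested.

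Rhd, Mpp1 and Cd47 were lower in embryonic than in definitive barcodes of both libraries. Rhd, a blood group protein, had 109.6 and 36.2 CPM in embryonic barcodes of the mutant and control libraries, against 573 and 310.3 CPM in definitive barcodes. Mpp1, the membrane skeleton protein p55, had 1 and 0 UMIs in embryonic barcodes of the mutant and control libraries, against 934 and 82 in definitive ones. Cd47, a surface protein that restrains phagocytes, had 0 UMIs in embryonic barcodes of both libraries, against 235 and 30, at least 7.42-fold and 3.81-fold lower in the embryonic range. Rhd was thus found in both ranges, while Cd47 had 0 UMIs in embryonic barcodes. In control embryonic barcodes the 36.2 CPM of Rhd was itself under the floor of 54.3 CPM.

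Ube2c, a ubiquitin-conjugating enzyme of mitotic exit, had 143 and 36.2 CPM in embryonic barcodes of the mutant and control libraries, against 2729 and 2421 CPM in definitive barcodes. The control embryonic value of Ube2c was under the floor of 54.3 CPM. Plaat3, Pepd (a dipeptidase), Gmpr (GMP reductase) and Ubac1 were also among the 10 lowest, with 1, 0, 4 and 3 UMIs in embryonic barcodes of the mutant library and 0, 0, 0 and 2 in those of the control library.

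The tested heme synthesis genes were mostly lower in the embryonic range. Of 10 listed, 7 were tested, and 4 were lower in both libraries (57.1%) and 0 higher in both. Over all genes tested, 15.7% were lower and 11.4% higher. The list had median log2 ratios of -1.66 and -1.22. Tmem14c went the other way, at least 2-fold higher in the mutant library and within 2-fold in the control library. Alas2 had 2072 and 2062 CPM in embryonic barcodes of the mutant and control libraries, against 9136 and 9662 CPM in definitive barcodes, which made it 4.41-fold (3.82 to 5.12) and 4.69-fold (3.87 to 5.72) lower. Fech, the last enzyme, had 954 and 814 CPM in embryonic barcodes of the mutant and control libraries, against 3953 and 4055 CPM in definitive barcodes. Alad and Urod, of the steps between, were the other 2. Pathway entry and exit were thus lower by similar ratios.

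The 4 tested iron genes did not share 1 direction. Slc25a37, the mitochondrial iron importer, had 471 and 181 CPM in embryonic barcodes of the mutant and control libraries, against 4880.4 and 4689 CPM in definitive barcodes. Glrx5, of iron-sulfur cluster assembly, had 1589.8 and 1049 CPM in embryonic barcodes of the mutant and control libraries, against 4050.2 and 3379 CPM in definitive barcodes. Both were lower in the embryonic range of both libraries, and they were 2 of 4 tested, beside 15.7% of all genes tested. The ferritin heavy chain Fth1 was slightly higher there, at 1.59-fold (1.55 to 1.62) and 1.60-fold (1.55 to 1.66), and Ftl1 had 53186 and 54468 CPM in embryonic barcodes of the mutant and control libraries, against 61451 and 67405 CPM in definitive barcodes. Tfrc, the transferrin receptor, did not pass the filter, with 29 and 12 UMIs over mutant and control hemoglobin-rich barcodes.

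Of 18 membrane and skeleton genes, 12 were tested, 5 lower in the embryonic range of both libraries (41.7%) and 0 higher. The shares over all genes tested were 15.7% and 11.4%. Rhd, Epb41 (a skeleton protein), Sptb (a spectrin chain) and Tmod1 were among them. The median log2 ratio was -0.49 for the mutant and -1.23 for the control library, and -0.08 in the control library with its 2 genes of 0 UMIs in a range set to their bound. Slc4a1 did not pass 2-fold, with 614 and 507 CPM in embryonic barcodes of the mutant and control libraries, against 462 and 366 CPM in definitive barcodes. Kel also differed by less than 2-fold in both libraries. The list as a whole was thus not lower by a common ratio.

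Transcription factors were mixed. Tal1, which is needed to form blood, had 373 and 253 CPM in embryonic barcodes of the mutant and control libraries, against 10.4 and 27.6 CPM in definitive barcodes. It was the only 1 of 7 tested factors that was higher in the embryonic range of both libraries, while Lmo2, E2f2 and Foxo3 were lower. The shares over all genes tested were 11.4% higher and 15.7% lower. Foxo3, a factor of late red cell maturation, had 43.9 and 54.3 CPM in embryonic barcodes of the mutant and control libraries, against 186 and 193 CPM in definitive barcodes. Lmo2 had 43.9 and 18.1 CPM in embryonic barcodes of the mutant and control libraries, against 214 and 166 CPM in definitive barcodes. The counts are small, at 4 or fewer UMIs for each of these lower factors in embryonic barcodes of either library. Bcl11a, Sox6 and Myb, known from globin switching, did not pass the filter, with 11, 25 and 0 UMIs in mutant and 1, 3 and 0 in control barcodes.

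Of 11 tested genes of organelle clearance, 6 were lower in the embryonic range of both libraries (54.5%) and 1, Btg2, was higher. The shares over all genes tested were 15.7% and 11.4%. The median log2 ratios of the list were -1.47 and -1.20 (-1.37 and -1.07 with genes of 0 UMIs in a range set to their bound). Mkrn1 had 1798 and 1664 CPM in embryonic barcodes of the mutant and control libraries, against 13726 and 11786 CPM in definitive barcodes. Gabarapl2, an autophagy protein, had 471 and 507 CPM in embryonic barcodes of the mutant and control libraries, against 3825 and 3814 CPM in definitive barcodes. Bnip3l, the receptor that removes mitochondria from reticulocytes, had 2401 and 2623 CPM in embryonic barcodes of the mutant and control libraries, against 6242 and 6027 CPM in definitive barcodes. Ube2o, Ube2l6 and Trim10 were the others. Bnip3l and its relative Bnip3 thus stood in opposite order, Bnip3l higher in definitive and Bnip3 higher in embryonic barcodes of both libraries.

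Of 14 tested enzymes and protectants, 8 were lower in the embryonic range of both libraries (57.1%) and 0 higher, beside 15.7% and 11.4% of all genes tested. Among the 8, Isg20 had 0 UMIs in embryonic barcodes of both libraries, against 66 and 13 in definitive ones. With 3 UMIs as the floor it was at least 2.08-fold and 1.65-fold lower, so its control call depends on the 10 CPM added. The median log2 ratios of the list were -1.27 and -1.27 (-1.20 and -0.99 with genes of 0 UMIs set to their bound). The peroxidases Gpx1 and Prdx2 were among the lower genes: Gpx1 had 4133 and 3021 CPM in embryonic barcodes of the mutant and control libraries, against 13999 and 11372 CPM in definitive barcodes, and Prdx2 had 14286 and 10854 CPM in embryonic barcodes of the mutant and control libraries, against 34464 and 28440.4 CPM in definitive barcodes. Bpgm had 2566 and 2406 CPM in embryonic barcodes of the mutant and control libraries, against 6242 and 5717 CPM in definitive barcodes. Both ranges thus held these transcripts and differed by folds of 2.38 to 3.76 for these 3 genes. Blvrb and Tent5c differed by less than 2-fold in both libraries.

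**Figure D5:**
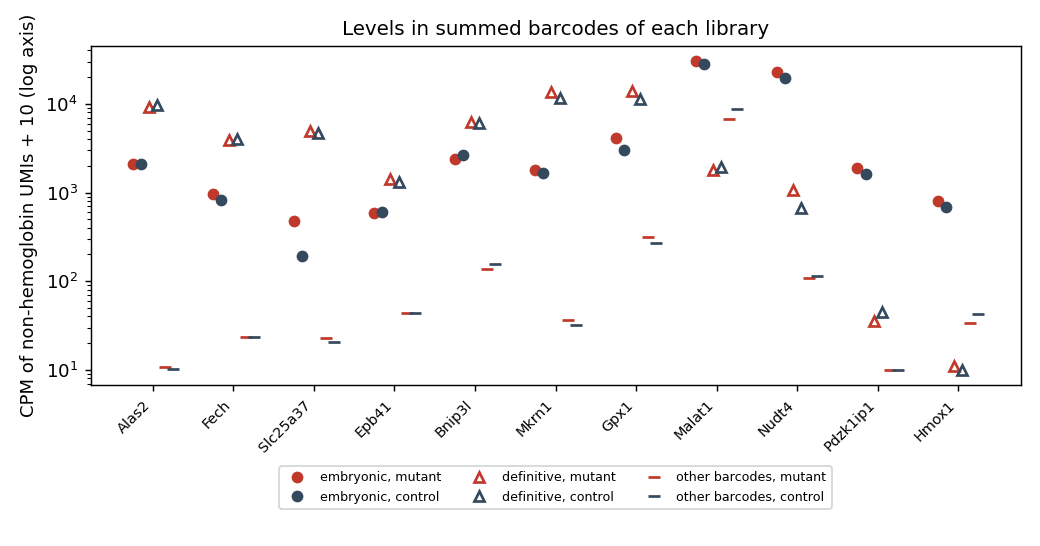
Levels of named genes as CPM of non-hemoglobin UMIs plus 10 (log axis) in embryonic barcodes (filled circles), definitive barcodes (triangles) and other barcodes (dashes), mutant in red and control in dark blue. From Alas2 to Gpx1 the definitive level is above the embryonic one, Malat1, Nudt4, Pdzk1ip1 and Hmox1 show the opposite order in both libraries.

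Genes reported elsewhere as specific to the primitive lineage were too scarce to compare. Aqp3 and Aqp8, water channels, had 0 UMIs in embryonic and in definitive barcodes of both libraries, and Lin28b had 0 UMIs in embryonic barcodes. With 3 UMIs as the floor, this allows up to 32.9 CPM in mutant and 54.3 CPM in control embryonic barcodes. Car1, a definitive carbonic anhydrase, had 25 and 4 UMIs in mutant and control definitive barcodes and 0 in embryonic ones, where its level of 26.0 and 27.6 CPM would be under the floor. Cd44 did not pass the filter.

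The libraries were compared over all hemoglobin-rich barcodes and within each range. Mutant over control, 52 of 1452 genes were at least 2-fold higher (3.58%) and 84 at least 2-fold lower (5.79%), and with no UMI minimum 158 and 455. Within the definitive range, 38 of 1183 tested genes were higher (3.21%) and 15 lower (1.27%), and within the embryonic range 9 of 443 were higher (2.03%) and 3 lower (0.677%). These counts have no replicate check and say only that the pooled libraries differ. The minimum was applied to sums in which mutant barcodes prevail, with 962427 mutant and 147290 control non-hemoglobin UMIs in the definitive range. Scarce genes low in mutant barcodes thus passed less easily. The median log2 ratio of all genes tested was -0.05 over all hemoglobin-rich barcodes, -0.01 in the definitive and -0.03 in the embryonic range.

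Of the 12 lowest genes in the mutant library, 4 (Hmox1, Bnip3, Bcor and Slc38a2) were also among the 10 highest of the embryonic over definitive contrast. Hmox1 had 78.0 CPM in mutant and 422 CPM in control hemoglobin-rich barcodes, a log2 ratio of -2.30. Within the definitive range it had 1 and 0 UMIs, and within the embryonic range the ratio was 0.677-fold (0.504 to 0.908). Bnip3 and Bcor had log2 ratios of -2.11 and -2.03 over all barcodes, and 0.692 and 0.755 as folds within the embryonic range with intervals that include 1. Malat1 had 5068 CPM in mutant and 13885 CPM in control hemoglobin-rich barcodes, 0.365-fold. Within the ranges it was 0.909-fold (0.802 to 1.03) in the definitive and 1.02-fold (0.970 to 1.07) in the embryonic range, with both intervals including 1.

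The rest of the 12 lowest were Junb, Resf1, Crabp1, Psma5, Cnppd1, Sqstm1, Fip1l1 and Tor1aip2. Within the definitive range, Slc38a2, Cnppd1, Fip1l1 and Tor1aip2 had log2 ratios of 0.38, 0.95, 0.73 and 0.13, the opposite sign, on at most 2 control UMIs each. Crabp1, a retinoic acid binding protein of the dermal list, was lower there too, with 89.4 CPM in mutant and 549.9 CPM in control definitive barcodes, 0.162-fold (0.119 to 0.223). In other barcodes Crabp1 had 676 CPM for the mutant and 1576 CPM for the control library, the same direction. Within the embryonic range it had 156 CPM in mutant and 141 CPM in control barcodes, 1.11-fold (0.546 to 2.29). Whether free dermal RNA carried that difference into red cell barcodes was not tested.

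All 12 highest genes in the mutant library had a log2 ratio above 0 within the definitive range. That range held 962427 of 1090354 mutant and 147290 of 260779 control non-hemoglobin UMIs used for the ranking. The shared sign is therefore no separate check. Within the embryonic range Gss (-0.11) and Slc25a51 (-0.13) had log2 ratios below 0, and over barcodes with at least 1000 detected genes Chac2, Gmpr, Gss, Ackr1 and Slc25a51 did. Urod, of heme synthesis, had 964 CPM in mutant and 394 CPM in control definitive barcodes, 2.45-fold (1.88 to 3.25). Chac2, which degrades glutathione, had 472 CPM in mutant and 169.7 CPM in control definitive barcodes, 2.78-fold (1.86 to 4.34). Gmpr had 899.8 CPM in mutant and 380.2 CPM in control definitive barcodes, 2.37-fold (1.81 to 3.16). E2f2, a cell cycle factor with a role in red cell maturation, had 158 CPM in mutant and 67.9 CPM in control definitive barcodes, 2.33-fold (1.23 to 4.95). These genes were picked for a high ratio in the same counts, so intervals above 1 are no support for a difference. The spread between embryos behind them is unknown. Asns, Dnttip1, Gss, Dapk2, Ackr1, Dnaja4, AI662270 and Slc25a51 completed the 12 highest, with 1 to 24 UMIs in control barcodes.

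Of all genes tested in the definitive range, 3.21% were higher and 1.27% lower in the mutant library, and the red cell lists are set beside that. In the definitive range, 1 of 6 tested heme synthesis genes (Urod), 0 of 4 iron genes, 1 of 11 membrane genes (Epb42), 2 of 6 transcription factors (E2f2 and Klf1), 0 of 10 clearance genes and 1 of 14 enzymes (Car2) were at least 2-fold higher in the mutant library, and 0 were lower in any of the 6 lists. Car2 had 6264 CPM in mutant and 2797 CPM in control definitive barcodes, 2.24-fold (2.03 to 2.48). Epb42 and Klf1 rest on 2 control UMIs each. Alas2, by contrast, had 9136 CPM in mutant and 9546 CPM in control definitive barcodes, 0.957-fold (0.905 to 1.01).

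The list medians were 0.30 for heme synthesis, 0.14 for iron, 0.65 for membrane, 0.52 for transcription factors, 0.18 for clearance and 0.28 for enzymes on the log2 scale, mutant over control in the definitive range. The median of all genes tested was -0.01. Mutant barcodes prevail in the sums used for the UMI minimum, so scarce genes passed mainly where mutant counts were high. The list medians therefore describe the genes that passed. In the embryonic range, 1 of 4 tested iron genes (Slc25a37) and 1 of 11 enzymes were at least 2-fold higher in the mutant library. None was higher among 4 heme synthesis, 2 membrane, 1 transcription factor and 6 clearance genes tested, and no list gene was lower. Of all 443 genes tested in that range, 2.03% were higher and 0.677% lower. Cell cycle genes had a median of -0.45 in the definitive range, with 0 of 8 past 2-fold.

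The transgene and Hedgehog targets gave few UMIs in hemoglobin-rich barcodes. Mutant hemoglobin-rich barcodes held 2 eYFP UMIs, 39 Ptch1 UMIs and 16 Gli1 UMIs, and control ones held 0 of each. With 3 UMIs as the floor, the control count allows up to 11.5 CPM. Ptch1 was 35.8 CPM in mutant hemoglobin-rich barcodes and 144 CPM in other mutant barcodes. Gli1 was 14.7 CPM in mutant hemoglobin-rich barcodes and 20.6 CPM in other mutant barcodes, and eYFP 1.83 and 16.9 CPM. None of the 3 genes passed the filter, and dermal markers were detected in hemoglobin-rich barcodes, so expression in red cells and RNA from other cells cannot be told apart.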

How the data were processed

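Droplet libraries (3′ chemistry) of DAPI-stained, sorted flank skin cells were sequenced on the same lane, 1 library per group, per the labels' protocols. The deposited files hold UMI counts per gene and barcode, not normalized; Cell Ranger 5.0.1 and mm10 are named in the submitters' processing notes, and further filters are not given in the sources used here. The matrices hold 32286 features and total 73809828 UMIs (mutant) and 109629368 UMIs (control), with a median of 5577 and 7217 UMIs per barcode and a minimum of 500 in both.

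Hemoglobin genes were the 8 features with symbols starting Hba- or Hbb-, and all other UMIs were non-hemoglobin. Hemoglobin-rich barcodes held 90.8% of all hemoglobin UMIs of the mutant and 86.5% of those of the control library. UMIs were summed over barcodes and given as CPM of non-hemoglobin UMIs. Genes with at least 50 UMIs over hemoglobin-rich barcodes of both libraries were compared, with 10 CPM added and a 2-fold threshold. Within 1 range, the same minimum was applied to that range's barcodes. With 1 library per group no test between libraries was made, and no p-value is given. Intervals are 95%: Clopper-Pearson for shares, exact Poisson for levels and exact conditional binomial for ratios. A sum of 0 was set to a floor of 3 UMIs over the group only for bounds and for medians given with genes at their bound. Calls and log2 ratios kept sums of 0, with the 10 CPM added. UMIs of 1 barcode share their source, so barcodes are not replicates.

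The named genes are the globins, list members, the 12 highest and 12 lowest of mutant over control, the 10 highest and 10 lowest of embryonic over definitive in both libraries, the 15 highest of hemoglobin-rich over other barcodes, and eYFP, Ptch1 and Gli1. Some genes that this rule names are not reported here. The barcodes, lists and markers were chosen with earlier results of these data known. No doublet caller was run and no ambient RNA was subtracted. Alternatives were the hemoglobin threshold, minimum genes or UMIs, leaving out barcodes with dermal RNA, thinning, scaling by TMM, the UMI minimum and the CPM added. The computations were tested on simulated counts. Promoters came from RefSeq GRCm38.p6 and transcripts from GENCODE M21, where 32158 features matched. Python 3.11.15, NumPy 2.4.6, SciPy 1.17.1 and pandas 2.3.3 were used.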

Additional observations from a re-analysis of the deposited data

Results flagged for a closer look

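Of 1452 genes, 23 (1.58%) had a ratio of embryonic over definitive barcodes of at least 2-fold in opposite directions in the libraries, and for 3 of them the counting interval also excluded 1 in each library. The difference between the libraries was not tested, since each contrast has 1 library. Cdkn1c, a cell cycle inhibitor, had a log2 ratio of 1.13 in mutant barcodes, on 55 embryonic and 260 definitive UMIs, and -1.17 in control barcodes, on 8 and 49 UMIs. Klf1, the main activator of adult beta-globin, had a log2 ratio of -2.92 in mutant barcodes, on 0 embryonic and 63 definitive UMIs, and 2.08 in control barcodes, on 5 and 2 UMIs. Twist1, a mesenchymal factor, had a log2 ratio of 1.19 in mutant barcodes, on 7 embryonic and 27 definitive UMIs, and -3.67 in control barcodes, on 0 and 17 UMIs. Ratios with a count of 0 depend on the 10 CPM added.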

How the results depend on the processing

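No paired analysis was possible because each group is 1 library. As reported, the ratio of shares was 7.30, the difference in summed embryonic beta share -24.4 points, the depth ratio 0.749 and the summed mitochondrial difference 0.777 points. Of the 6 red cell lists, with 7, 4, 12, 7, 11 and 14 genes tested, 8 members were higher in the mutant library and Tal1 was lower. Of all genes tested, 3.58% were higher and 5.79% lower. The number of list genes tested can differ in the settings below, and is given above for the ranges only. Hemoglobin of at least 30% gave -24.3 points of embryonic beta share, 89 genes higher and 131 lower in mutant over control, 261 lower than in other barcodes and 13 list members. At least 80% gave -24.0 points, a mitochondrial difference of 0.472, 51 genes lower in mutant over control and 348 lower than in other barcodes. Requiring 1000 detected genes kept 12 mutant and 8 control barcodes. It gave a ratio of shares of 1.71, -14.7 points, a depth ratio of 0.851, a mitochondrial difference of 0.501, 12 genes higher and 4 lower in mutant over control, 3 higher and 7 lower in embryonic over definitive, 15 higher and 0 lower than in other barcodes, and 2 list members. There the log2 ratio of mutant over control turned for Chac2 (-1.01), Gmpr (-0.32), Gss (-2.12), Ackr1 (-1.09), Slc25a51 (-0.31) and Slc38a2 (0.86), and that of embryonic over definitive for Ddit3 (-3.28 in mutant and -3.29 in control barcodes). Leaving out barcodes with a dermal marker UMI gave -22.3 points, a mitochondrial difference of 0.994, 51 genes lower in mutant over control and 289 lower than in other barcodes. Thinning to 500 UMIs gave a ratio of non-hemoglobin UMIs of 1.13, which at equal total UMIs follows their share and not depth. With no UMI minimum, 158 genes were higher and 455 lower in mutant over control, 655 and 361 in embryonic over definitive, and 3695 lower than in other barcodes. Adding 1 CPM gave 80 genes higher in mutant over control. The split by range was chosen after seeing the data. The definitive range gave a depth ratio of 0.889, a mitochondrial difference of 0.130, 15 genes lower and 5 list members, and turned Hmox1 (0.14), Slc38a2 (0.38), Cnppd1 (0.95), Fip1l1 (0.73) and Tor1aip2 (0.13). The embryonic range gave a depth ratio of 0.630, a mitochondrial difference of -0.0765, 9 genes higher, 3 lower and 2 list members, and turned Gss (-0.11), Slc25a51 (-0.13) and Crabp1 (0.14). The cause was not tested. TMM scaling, a minimum of 1000 UMIs, counting Hbq1a and Hbq1b as hemoglobin, and ranges at 20, 50 or 80% moved no summary value past its limit. In control barcodes with at least 90% embryonic beta-globin, 3 UMIs correspond to 54.3 CPM, so lower levels could not be seen there.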

Other observations

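Krt15, a keratin of basal epidermis chosen here after its values were seen, was higher in the definitive range than in embryonic or other barcodes of either library. It had 266 and 123 CPM in mutant and control embryonic barcodes and 1134 and 597 CPM in definitive ones, against 172 and 32.1 CPM in other barcodes. It was found in 616 of 2302 mutant (26.8%) and 48 of 294 control definitive barcodes (16.3%). Other basal keratins did not follow: Krt14 had 40.5 and 20.4 CPM in definitive barcodes, against 286 and 86.4 CPM in other barcodes, and Krt5 had 19.7 and 0 CPM, against 163 and 35.1 CPM. At 100 UMIs per barcode, Krt15 was detected in 10.1% of mutant and 6.90% of control definitive barcodes, against 1.38% and 0.221% of other barcodes.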
